A study of Mus musculus with 6 samples.

Results

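The genes described here are 8 genes of phagocyte function, measured in the soleus muscle: the lysozymes *Lyz1* and *Lyz2*, the NADPH oxidase subunits *Cybb*, *Cyba*, *Ncf1* and *Ncf4*, and 2 further phagocyte genes, *Mpeg1* and *Lgals3*. They were found by their symbols, and they are 8 of the 51912 genes counted. The members were chosen from the comparison of HET with WT mice in these same libraries, so every difference between the genotypes given for a member is a description, without a test. Of the 8, 7 had enough reads to enter the fit across 14696 genes, and *Ncf4* did not.

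RNA was sequenced from the soleus, a slow postural muscle of the hindlimb, of 3 *Mustn1* KO-first HET mice and 3 WT mice, with 1 library for each mouse. HET mice carried 1 KO-first (tm1a) allele in every cell of the body, in which *Mustn1* is trapped by a *lacZ* and neomycin resistance cassette, and 1 intact allele, while the WT mice, named as littermates, carried no such allele. All mice were C57BL6/N and 8 weeks old. The comparison asks how gene expression in soleus differs when *Mustn1*, which encodes a microprotein of muscle and vessel wall, is lowered.

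The libraries held between 26790075 and 50368796 reads on genes. *Mustn1* had 471, 452 and 574 reads in HET mice 1, 2 and 3 and 691, 817 and 1504 in WT mice 1, 2 and 3, a log2 fold change of -0.96 (SE 0.15, edgeR quasi-likelihood test, Benjamini-Hochberg adjusted p = 0.0452), and this call was kept in 2 of the 6 fits with a mouse left out. The labels call the mice male, yet *Xist* had at least 3858 and at most 9154 reads in each library, while the Y-linked genes *Ddx3y*, *Kdm5d*, *Uty* and *Eif2s3y* together had 0 to 12. This is the expression pattern of female mice, in every library of both genotypes, and it goes against the label. In bulk muscle RNA, fewer cells of a type and less RNA per cell cannot be told apart, and this holds for every value below.

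Lysozyme is a secreted and lysosomal enzyme that cleaves the peptidoglycan of bacterial cell walls, and in the mouse *Lyz2* is the gene used by macrophages and granulocytes, while *Lyz1* is best known from Paneth cells of the gut. The phagocyte NADPH oxidase passes electrons across a membrane to oxygen to make superoxide: *Cybb* encodes gp91phox and *Cyba* encodes p22phox, which form the membrane core, and *Ncf1* (p47phox) and *Ncf4* (p40phox) belong to the cytosolic complex that docks onto it with the GTPase *Rac2*. *Mpeg1* encodes perforin-2, a pore-forming protein of the endolysosome, and *Lgals3* encodes galectin-3, a lectin that binds β-galactosides.

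The 2 lysozyme genes lie side by side on the minus strand of chromosome 10 in the GRCm38 build, *Lyz2* (ENSMUSG00000069516) at chr10:117277331-117282321 and *Lyz1* (ENSMUSG00000069515) at chr10:117287797-117292868. Because their values can only be read apart where their sequences differ, the coding exons are shown, from the GENCODE M21 transcripts of GRCm38, 5′ to 3′ on the minus strand, with the bases that differ between the genes in capitals. The coding part of exon 1 lies at chr10:117292703-117292838 in *Lyz1* and at chr10:117282107-117282242 in *Lyz2*. Over its 136 bases the genes differ at 14.
Lyz1 exon 1: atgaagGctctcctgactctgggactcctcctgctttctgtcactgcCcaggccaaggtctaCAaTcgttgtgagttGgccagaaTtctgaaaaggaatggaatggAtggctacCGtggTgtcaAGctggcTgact
Lyz2 exon 1: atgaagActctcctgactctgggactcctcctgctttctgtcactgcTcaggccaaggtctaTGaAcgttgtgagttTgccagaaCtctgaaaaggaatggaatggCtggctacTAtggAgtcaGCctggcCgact

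Exon 2, at chr10:117291029-117291193 in *Lyz1* and chr10:117280641-117280805 in *Lyz2*, has 165 bases, 6 of which differ, and these leave an identical run of 60 bases.
Lyz1 exon 2: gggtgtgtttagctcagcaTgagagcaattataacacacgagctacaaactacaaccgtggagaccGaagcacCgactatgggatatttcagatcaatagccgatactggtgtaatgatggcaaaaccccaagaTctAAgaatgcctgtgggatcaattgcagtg
Lyz2 exon 2: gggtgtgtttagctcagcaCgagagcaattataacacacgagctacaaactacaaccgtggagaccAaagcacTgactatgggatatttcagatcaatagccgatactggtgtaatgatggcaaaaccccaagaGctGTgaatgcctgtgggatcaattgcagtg

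Exon 3, at chr10:117289119-117289197 in *Lyz1* and chr10:117278643-117278721 in *Lyz2*, has 79 bases and 0 differences, so that 1 sequence stands for both.
Lyz1 and Lyz2 exon 3: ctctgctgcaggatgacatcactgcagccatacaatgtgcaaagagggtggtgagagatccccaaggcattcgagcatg

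In the coding part of exon 4, 2 of 64 bases differed, which leaves 22 differences over the 444 coding bases, or 95.05% identity. Of the 1214 windows of 50 bases (the read length) in the *Lyz1* transcript, 195 were also found letter for letter in *Lyz2* and in no other gene, and 83.94% were unique to *Lyz1*. In *Lyz2*, 84.61% of 1267 windows were unique. The counting command left out reads that map to several places, so a read from a shared window enters neither count, and the levels of both genes are uncertain to that extent.

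Reads in every mouse are given below with CPM, a gene's reads scaled to the depth of its library with TMM factors, which can be compared between mice for 1 gene but not between genes. For each gene, every HET mouse lay above every WT mouse, in 8 of 8 members and in 7 of the 7 tested, and 7.55% of all genes tested had this order. The choice of members used this contrast, so nothing is read from the count. The plot of the members by mouse shows how far apart the genotypes were.

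**Figure D1:**
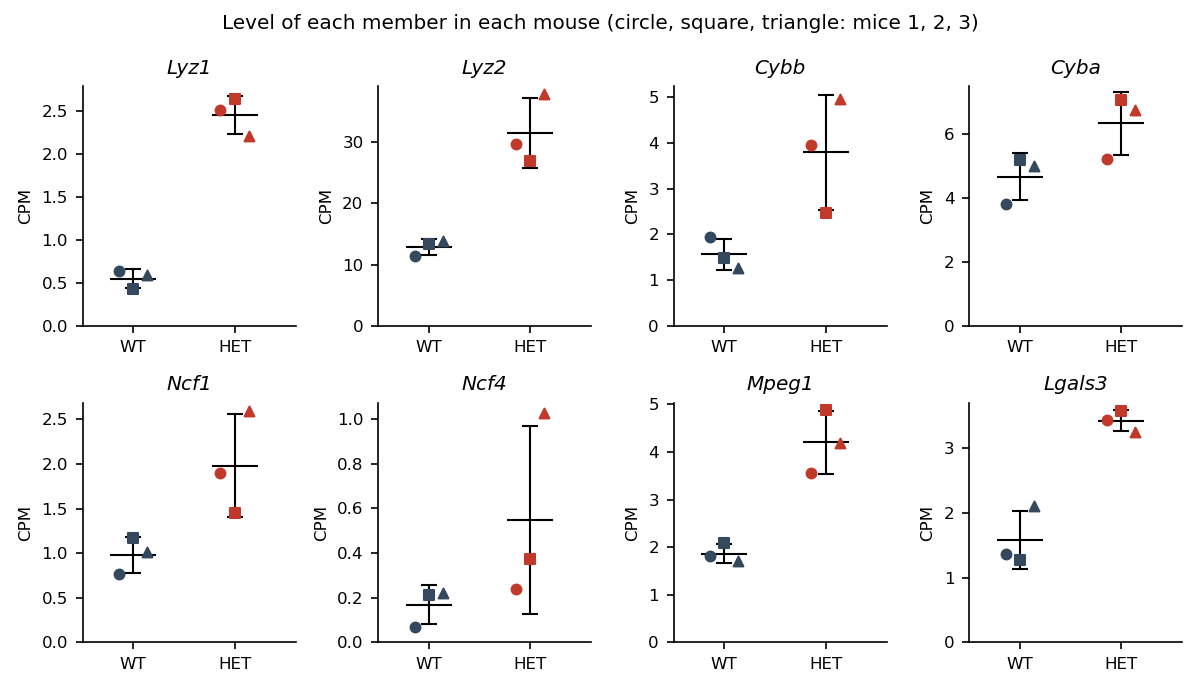
CPM (reads scaled to library depth with TMM factors) of the 8 genes in 3 WT and 3 HET mice, with 1 panel per gene and an axis from 0. Points are mice, horizontal bars the means and error bars the SD (n = 3); Lyz1 and Lyz2 show a wide gap between genotypes, while the lowest HET mouse of Cyba lies at the level of the highest WT mouse.

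*Lyz1* had 94, 71 and 97 reads in HET mice 1, 2 and 3, and 19, 12 and 29 reads in WT mice 1, 2 and 3. Its level was 2.46 ± 0.223 CPM in HET and 0.550 ± 0.110 CPM in WT (mean ± SD, n = 3), a ratio of 4.47 and a log2 fold change of 2.14 (SE 0.26), the highest among the members. With so few reads the counting error is wide. The exact Poisson 95% interval of the 12 reads in WT mouse 2 runs from 6.20 to 20.96 reads. It covers counting error only, as do all intervals here, and reads without molecular identifiers are not independent molecules. On the CPM scale the interval of the highest WT mouse ended at 0.992 and that of the lowest HET mouse began at 1.79. This is a description of the reads and no test of the genotypes.

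*Lyz2* had 1114, 723 and 1662 reads in the HET mice and 342, 378 and 685 reads in the WT mice. This corresponded to 29.8, 26.9 and 37.9 CPM in HET and 11.4, 13.4 and 13.9 CPM in WT, with means of 31.5 ± 5.68 and 12.9 ± 1.29 CPM. The WT mice lay close together, and the lowest HET mouse was far above the highest WT mouse. The ratio of the means was 2.44, and the log2 fold change was 1.29 (SE 0.14), the smallest standard error among the members.

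Since the difference between genotypes was wider for *Lyz1* than for *Lyz2*, the share of lysozyme reads that fell on *Lyz1* is given for each mouse. The *Lyz1* share was 7.78% in HET mouse 1 (95% Wilson interval 6.40 to 9.43), 8.94% in HET mouse 2 (7.15 to 11.1) and 5.51% in HET mouse 3 (4.54 to 6.68). It was 5.26% in WT mouse 1 (3.40 to 8.07), 3.08% in WT mouse 2 (1.77 to 5.30) and 4.06% in WT mouse 3 (2.84 to 5.77). The 3 HET mice were above the 3 WT mice, but HET mouse 3 and WT mouse 1 were closer than their intervals are wide, as the plot of the share shows. Reads in windows shared by both genes enter neither count, and the share stands for the distinguishable reads.

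**Figure D2:**
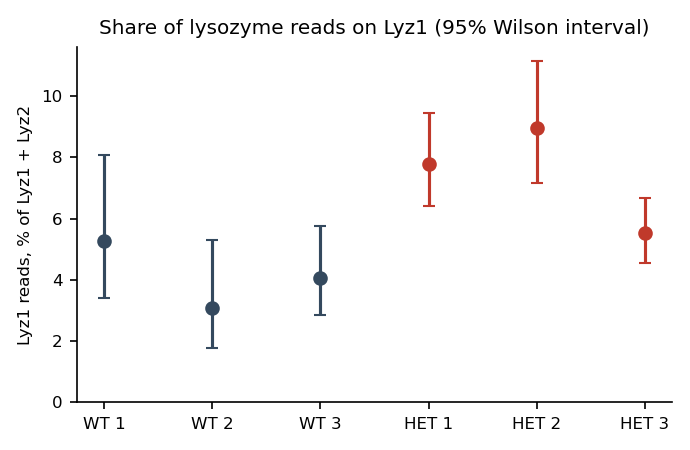
Lyz1 reads as a percentage of Lyz1 plus Lyz2 reads in each of the 6 mice, with the axis from 0. Points are single mice and bars the 95% Wilson interval for counting error; the points run from 3.08% to 5.26% in WT and from 5.51% to 8.94% in HET, with intervals of the genotypes that overlap.

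Of the membrane core of the oxidase, *Cybb* (ENSMUSG00000015340, chrX:9435252-9487771, minus strand) had 148, 66 and 218 reads in the HET mice and 58, 42 and 63 reads in the WT mice. Its CPM values of 3.95, 2.46 and 4.97 in HET were spread more widely than the 1.94, 1.49 and 1.28 in WT. The means were 3.79 ± 1.26 and 1.57 ± 0.339 CPM, a ratio of 2.42 and a log2 fold change of 1.30 (SE 0.28). HET mouse 2 was the closest to the WT mice, and without HET mouse 3 the log2 fold change was 1.06.

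*Cyba* (ENSMUSG00000006519, chr8:122424776-122432930, minus strand), whose product also pairs with other NADPH oxidases, had 195, 189 and 296 reads in the HET mice and 114, 146 and 246 in the WT mice. Here the genotypes nearly met, with 5.21 CPM in HET mouse 1 and 5.18 CPM in WT mouse 2. The means of 6.33 ± 0.984 and 4.66 ± 0.739 CPM gave a ratio of 1.36 and a log2 fold change of 0.44 (SE 0.18), the lowest among the members tested. Of all genes tested, 91.28% had a lower log2 fold change than *Cyba*, against 97.97% to 99.85% for the other members.

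The 2 genes of the membrane core thus differed in the size of their ratio, and their proportion was set out per mouse from RPKM, which also divides by gene length. *Cyba* RPKM was 7.37, 16.0 and 7.59 times *Cybb* RPKM in the HET mice and 10.99, 19.4 and 21.8 times in the WT mice. The ranges of this proportion overlapped, with HET mouse 2 inside the WT range.

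Of the cytosolic subunits, *Ncf1* (ENSMUSG00000015950, chr5:134220053-134229625, minus strand), which encodes the organizer of the complex, had 71, 39 and 114 reads in the HET mice and 23, 33 and 50 in the WT mice. Its CPM was 1.90, 1.45 and 2.60 in HET and 0.769, 1.17 and 1.01 in WT, with means of 1.98 ± 0.577 and 0.984 ± 0.202 CPM. The ratio was 2.01 and the log2 fold change 1.02 (SE 0.29), and without HET mouse 3, the highest of the 6, it was 0.78. In the annotation, *Gtf2ird2* lies on the opposite strand over part of *Ncf1*, and 91.85% of the windows of 50 bases in the longest *Ncf1* transcript were unique to it, with the rest found in *Gtf2ird2* or *Zhx3*. The counting used strand, and *Gtf2ird2* itself had 203 to 417 reads over the 6 mice.

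*Ncf4* (ENSMUSG00000071715, chr15:78244801-78262580, plus strand) was the least abundant member, with 9, 10 and 45 reads in the HET mice and 2, 6 and 11 in the WT mice. Its level was 0.546 ± 0.420 CPM in HET and 0.168 ± 0.0873 CPM in WT. HET mouse 3 alone was at 1.03 CPM, while HET mice 1 and 2, at 0.240 and 0.373 CPM, lay just above the 0.223 CPM of WT mouse 3. The exact Poisson 95% intervals of HET mice 1 and 2, 0.110 to 0.456 and 0.179 to 0.685 CPM, covered that WT value, so that only HET mouse 3 stood above WT mouse 3 beyond counting error. *Ncf4* did not pass the filter on low counts. In the fit without a filter its log2 fold change was 1.68 (SE 0.55).

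HET mouse 3 was also the library with the most reads on several neutrophil genes, a cell type that carries this oxidase in quantity. *S100a9* had 1, 2 and 56 reads in the HET mice and 3, 6 and 7 in the WT mice, *Retnlg* had 0, 0 and 15 against 0 in each WT mouse, and *Mmp8* had 0, 0 and 13 against 0, 2 and 4. These genes were singled out after their values were seen, and *Camp*, of the same list, had 0, 0 and 1 against 0, 1 and 1. *Ly6g*, a defining neutrophil marker, was at 0 in all 6 libraries, and over the 11 neutrophil markers the summed level ran from 4.70 to 7.86 CPM in HET and from 4.75 to 5.25 CPM in WT. Only 2 of the 11, *Csf3r* and *Ltf*, passed the filter, with log2 fold changes of 0.05 and 0.02. The part of these cells in the level of *Ncf4* and of the other members in HET mouse 3 was not tested. Without HET mouse 3 the log2 fold change was 2.21 for *Lyz1*, 1.14 for *Lyz2*, 1.06 for *Cybb* and 0.39 for *Cyba*. It was 0.78 for *Ncf1*, 1.18 for *Mpeg1* and 1.12 for *Lgals3*, and 0 members passed the threshold in that fit.

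*Mpeg1* (ENSMUSG00000046805, chr19:12460779-12465284, plus strand) had 133, 131 and 184 reads in the HET mice and 54, 59 and 84 in the WT mice. This was 3.55, 4.88 and 4.19 CPM in HET against 1.81, 2.09 and 1.70 CPM in WT, with means of 4.21 ± 0.665 and 1.87 ± 0.202. The gap between the lowest HET and the highest WT mouse exceeded the range within either genotype. The ratio was 2.26 and the log2 fold change 1.17 (SE 0.20), with little movement when any 1 mouse was left out, between 1.07 and 1.28.

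*Lgals3* (ENSMUSG00000050335, chr14:47367751-47386160, plus strand) had 129, 96 and 143 reads in the HET mice and 41, 36 and 104 in the WT mice. The HET mice were close together at 3.45, 3.58 and 3.26 CPM, while WT mouse 3 at 2.11 CPM stood above WT mice 1 and 2 at 1.37 and 1.28 CPM. The means were 3.43 ± 0.160 and 1.59 ± 0.455 CPM, a ratio of 2.16 and a log2 fold change of 1.08 (SE 0.23). Without WT mouse 3 it was 1.37.

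No single HET mouse led all members. HET mouse 2 was the highest HET mouse for 4 members, *Lyz1*, *Cyba*, *Mpeg1* and *Lgals3*, and HET mouse 3 for the other 4, *Lyz2*, *Cybb*, *Ncf1* and *Ncf4*. Among WT mice, mouse 1 was highest for 2 members, and mice 2 and 3 for 3 each. The members added up to 50.6, 49.4 and 62.9 CPM in the HET mice and 21.8, 25.3 and 25.8 CPM in the WT mice, and *Lyz2* made up between 52.4% and 60.2% of these reads, so that this sum mainly follows *Lyz2*.

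Levels can be compared between genes only per length, in RPKM. The length used can exceed that of the longest coding transcript, at 3663 against 2882 bases for *Ncf1*, while for *Lyz1* both were 1263. Reads in windows shared by *Lyz1* and *Lyz2* are also missing from their levels. The order of genes with close values depends on these limits. In WT mice *Lyz2* came first with 9.81 ± 0.983 RPKM, followed by *Cyba* with 4.48 ± 0.711 and *Lgals3* with 0.853 ± 0.245. *Lyz1* and *Mpeg1*, at 0.435 ± 0.0871 and 0.431 ± 0.0467 RPKM, overlapped, as did *Cybb* and *Ncf1* at 0.270 ± 0.0583 and 0.269 ± 0.0552, and *Ncf4* was last with 0.0829 ± 0.0432. In HET mice *Lyz2* at 24.0 ± 4.31 RPKM and *Cyba* at 6.09 ± 0.947 kept the top of the order, and *Lyz1* at 1.94 ± 0.176 stood beside *Lgals3* at 1.85 ± 0.0861, with which it overlapped. *Mpeg1*, *Cybb*, *Ncf1* and *Ncf4* followed with 0.971, 0.653, 0.541 and 0.270 RPKM, each overlapping the next. Thus the RPKM range of *Lyz1* lay below that of *Lgals3* in WT mice and overlapped it in HET mice, as the plot of levels per gene length shows.

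**Figure D3:**
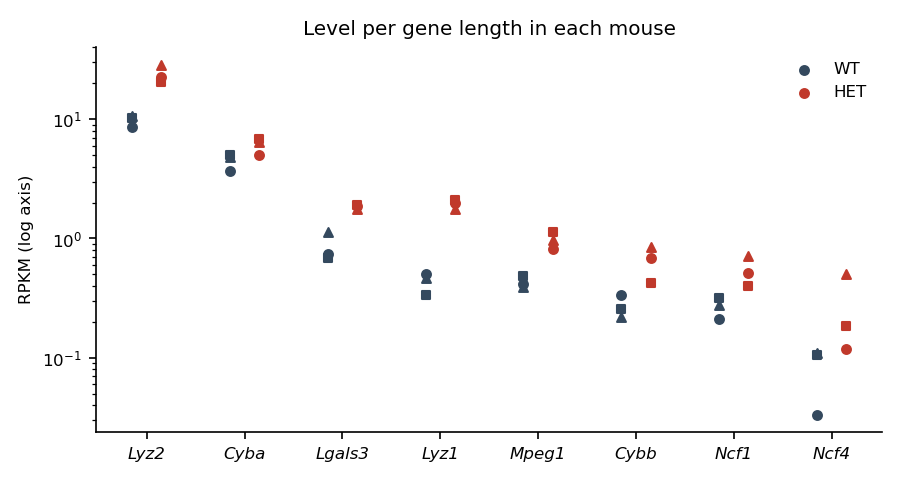
RPKM (CPM per kilobase of gene, log axis) of the 8 genes in each of 3 WT and 3 HET mice, ordered by the WT mean. Circles, squares and triangles are mice 1, 2 and 3 of a genotype; Lyz2 is highest and Ncf4 lowest in both genotypes, with HET mouse 3 apart for Ncf4.

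In the fit across all genes, 21 genes, or 0.143% of those tested, were higher in HET at an adjusted p below 0.05 and 1 gene, or 0.00680%, was lower, which was *Mustn1* itself. Without adjustment, 846 genes were higher and 294 lower at p below 0.05. *Lyz1* and *Lyz2* were the 2 members among the 21, and since the choice of members used this contrast, this is a description and nothing is read from it. Of all genes tested, 6702, or 45.6%, had a log2 fold change above 0. The middle 90% of all log2 fold changes lay between -0.34 and 0.64, with a median of -0.02. The fold changes of the members tested lay above this band, except for that of *Cyba*, which lay inside it.

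**Figure D4:**
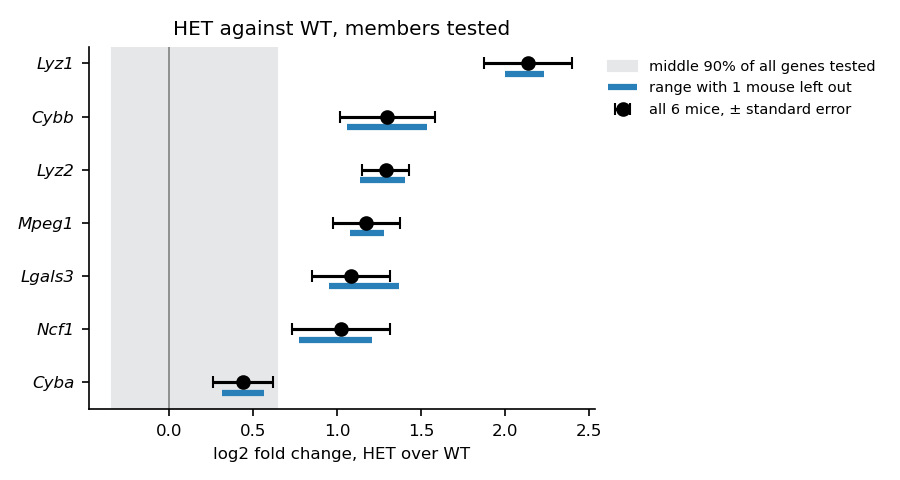
Log2 fold change of HET over WT for the 7 members tested, with points and error bars for the estimate and its standard error over all 6 mice, blue bars for the range when 1 mouse is left out, and a grey band from -0.34 to 0.64 for the middle 90% of all genes tested. Lyz1 is highest at 2.14, 5 members lie between 1.02 and 1.30, and Cyba lies in the band at 0.44.

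How many members passed the threshold depended on the fit and on single mice. With DESeq2's Wald test 5 passed (*Lyz1*, *Lyz2*, *Cybb*, *Mpeg1* and *Lgals3*). Beside them, 1.12% of the 17801 genes given an adjusted p in that fit passed with a higher level in HET. Without the filter on low counts 6 passed (the same 5 genes and *Ncf1*), beside 1.33% of 29081 genes with at least 1 read. With the replicate numbers as a block 3 passed (*Lyz1*, *Lyz2* and *Mpeg1*), beside 0.776% of 14696 genes. These shares are over unlike sets of genes. Without HET mouse 1, HET mouse 3, WT mouse 1 or WT mouse 2, 0 members passed, as did 0 of all genes in these 4 fits, and without WT mouse 3 it was 3 members, beside 77 genes higher in HET. The log2 fold changes themselves were above 0 in every one of these fits. These fits reuse the same mice and the members were chosen on this contrast, so nothing is read from that.

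The rest of the NADPH oxidase machinery was listed as 16 genes, of which 12 had enough reads to be tested. Log2 fold changes were above 0 for 9 and below 0 for 3, while 45.6% of all genes tested were above 0. The median was 0.39 against -0.02 over all genes, and 0 passed the threshold in either direction by edgeR. *Duox1*, a dual oxidase with its own catalytic core, was the highest, with 57, 48 and 48 reads in the HET mice and 9, 19 and 26 in the WT mice (log2 fold change 1.53, SE 0.36, edgeR adjusted p = 0.161). *Rac1*, the GTPase found in most cells, was the lowest, with 139 ± 7.13 CPM in HET and 149 ± 4.66 CPM in WT (log2 fold change -0.09).

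Some further genes of the list were singled out after their values were seen. *Rac2*, the GTPase of blood cells, had 39, 41 and 59 reads in HET and 17, 17 and 29 in WT (log2 fold change 1.14, SE 0.29, edgeR adjusted p = 0.215). *Cybc1*, a chaperone of the membrane core, was at 7.77 ± 0.483 CPM in HET and 6.34 ± 0.345 CPM in WT (0.29, SE 0.13, adjusted p = 0.643). *Nox4*, the oxidase of vessel and matrix cells, was at 3.95 ± 0.528 and 3.81 ± 0.661 CPM, and *Nox3* and *Noxa1* were at 0 reads in all 6 libraries. In 5 of the 12 genes tested every HET mouse lay above every WT mouse, an order that 7.55% of all genes tested had.

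Antimicrobial and granule genes other than the members were mostly too low to test. Of 18 listed, 5 were tested, and these had log2 fold changes between 0.02 for *Nos2*, the inducible nitric oxide synthase, and 0.83 for *Slc11a1*, a metal transporter of the phagosome (SE 0.37, edgeR adjusted p = 0.643), with a median of 0.25, and 0 passed the threshold. *Mpo*, *Elane*, *Prtn3* and *Ctsg*, the enzymes of azurophil granules, had between 0 and 9 reads in any library. The other genes of the lysozyme family in the list, *Lyzl4*, *Lyg1*, *Lyg2* and *Spaca3*, had between 0 and 7.

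Among the other galectins and galectin-like genes, 7 were tested, 4 with log2 fold changes above 0 and 3 below, with a median of 0.11 and 0 past the threshold. *Lgals12* was the highest at 0.89 (SE 0.80), with 45, 67 and 78 reads in HET and 6, 8 and 109 in WT, so that WT mouse 3 stood far above WT mice 1 and 2. *Lgals4* was the lowest at -0.22. *Lgals1*, the abundant galectin of muscle and connective tissue, was at 118 ± 8.77 CPM in HET and 108 ± 13.3 CPM in WT (log2 fold change 0.13). Among these 7, the genotypes did not overlap only for *Lgals3bp*, which encodes a binding partner of galectin-3 (log2 fold change 0.52, SE 0.15, edgeR adjusted p = 0.294). Every HET mouse lay above every WT mouse for it, an order that 7.55% of all genes tested had.

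Genes that handle reactive oxygen, the products of the oxidase, were all well above the filter, with 22 of 22 tested. Log2 fold changes were above 0 for 9 and below 0 for 13, with a median of -0.02, equal to that of all genes, and 0 passed the threshold. The ends of the range were *Sod3*, the extracellular superoxide dismutase, at 0.68 (SE 0.17, edgeR adjusted p = 0.212), and *Nqo1*, a quinone reductase, at -0.19. The range of this list was narrower than that of the members, as the plot of the lists shows.

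Of 14 myeloid transcription factors, 12 were tested, 9 with log2 fold changes above 0 and 3 below, with a median of 0.14 and 0 past the threshold. *Ikzf1*, which encodes Ikaros, was the highest at 1.53, with 29, 32 and 60 reads in HET and 12, 11 and 18 in WT (SE 0.34, edgeR adjusted p = 0.139). *Bhlhe41* was the lowest at -0.33. *Spi1*, which encodes PU.1, a regulator of many phagocyte genes, had 72, 41 and 55 reads in HET and 18, 22 and 25 in WT (1.33, SE 0.31, adjusted p = 0.160), and was singled out after its values were seen.

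**Figure D5:**
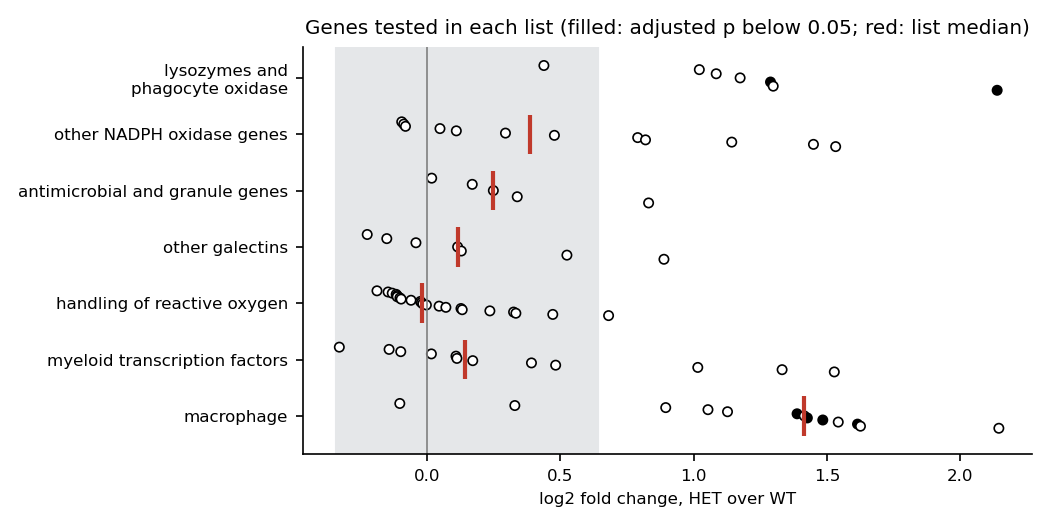
Log2 fold change of HET over WT for each tested gene of the members, of 5 related lists and of the macrophage markers. Each point is a gene, filled where the edgeR adjusted p was below 0.05, red lines are medians and the grey band is the middle 90% of all genes tested; the medians are 1.41 for the macrophage markers and between -0.02 and 0.39 for the 5 related lists, and none is drawn for the members.

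Markers of the cells that could carry these genes are given beside them. The marker lists were written with earlier results of these data known, so nothing is read from the counts of markers past the threshold. Of 13 macrophage markers, all tested, 12 had log2 fold changes above 0, with a median of 1.41. Past the threshold and higher in HET were 4 of the 13 (edgeR adjusted p between 0.0130 and 0.0452), beside 0.143% of all genes tested. These were *C1qa* and *C1qb*, which encode chains of complement C1q, *Csf1r*, the receptor that macrophages need to survive, and *Adgre1*, which encodes F4/80. Without HET mouse 1, HET mouse 3, WT mouse 1 or WT mouse 2, 0 of the 13 passed the threshold, as did 0 of all genes. Without WT mouse 3 it was 7, beside 77 genes higher in HET. *Mertk*, at -0.10, was the marker below 0. The summed level of the list was 94.4, 74.3 and 107 CPM in the HET mice and 44.9, 53.0 and 50.9 CPM in the WT mice. Classical monocyte markers had 2 of 5 tested. *Ccr2* was at 1.50 (edgeR adjusted p = 0.123) and *Fn1*, which fibroblasts also make, at 1.13 (edgeR adjusted p = 0.358). *Ptprc*, the common leukocyte antigen, was at 1.11 (edgeR adjusted p = 0.211).

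T cell markers had between 2 and 9 reads in all in each library, and 1 of 4 B cell markers was tested, at -0.31. Dendritic cell markers had 2 of 5 tested, *Cd209a* at 2.89 (SE 0.69, edgeR adjusted p = 0.174) and *Zbtb46* at -0.25. *Cd209a* had few reads, with 18, 33 and 26 in the HET mice and 0, 2 and 9 in the WT mice. Red blood cell markers summed to between 29.4 and 52.4 CPM in HET and between 35.5 and 58.2 in WT, which overlapped. Of 4 fibroblast markers, 4 were above 0, between 0.58 and 1.06. Among these, *Pi16* was higher in HET past the threshold (edgeR adjusted p = 0.0452), a call kept in 1 of the 6 fits with a mouse left out. The muscle fiber markers had medians of -0.08 for slow and -0.18 for fast fibers, with 0 of 10 past the threshold. The summed fast fiber markers did not overlap between genotypes, at 19250, 20570 and 19380 CPM in the HET mice and 24640, 22510 and 22420 CPM in the WT mice. Among them *Myh4*, the myosin of the fastest fibers, was at 44.7, 2042 and 167 CPM in the HET mice and 1470, 1774 and 976 CPM in the WT mice (log2 fold change -0.91, SE 1.50), so that HET mice 1 and 3 stood far below the other 4 mice. The share of all genes with every HET mouse below every WT mouse is not given here, so nothing is read from the order of the fast fiber sum. The part of muscle fibers in the members' levels was not tested.

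Set against the summed macrophage markers, the ranges of the lysozymes did not overlap between genotypes and those of the other members did. *Lyz2* was 0.315 to 0.363 times that sum in HET mice and 0.253 to 0.273 times in WT mice, without overlap, and *Lyz1* was 0.0207 to 0.0356 times in HET and 0.00803 to 0.0142 times in WT, also without overlap. For *Cybb*, *Cyba*, *Ncf1*, *Ncf4*, *Mpeg1* and *Lgals3* the ranges of the ratio overlapped between genotypes. For *Cybb*, for example, they were 0.0331 to 0.0464 in HET and 0.0251 to 0.0432 in WT. The result for both lysozymes depends on what they are set against. Divided by *Csf1r* alone, *Lyz2* was 2.35, 2.42 and 2.84 times in the HET mice and 3.39, 2.95 and 2.25 times in the WT mice, which overlapped. For *Lyz1* the genotypes overlapped as well when it was divided by *Csf1r*. Its ratio was lower in HET mouse 3 (2.21 CPM of *Lyz1* and 13.35 of *Csf1r*) than in WT mouse 1 (0.6355 and 3.378 CPM). The sum gives much weight to *Mrc1*, at 26.4 ± 8.89 CPM in HET and 21.1 ± 3.81 CPM in WT (log2 fold change 0.33). These ratios use the contrast by which the members were chosen and are given without a test. How many of all genes have ranges without overlap against the same sum was not counted, so nothing is read from this order. The part of macrophage RNA in the members' levels was not tested.

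The members followed each other over the 6 mice to different degrees. The correlation (Pearson's r, with no p) of a gene's log2 CPM with the mean of the standardised log2 CPM of the 7 members was 0.994 for *Lyz2*, 0.955 for *Mpeg1*, 0.949 for *Lyz1*, 0.925 for *Lgals3*, 0.921 for *Ncf1*, 0.870 for *Cybb* and 0.827 for *Cyba*. Each member enters that mean, and both genotypes enter the correlation, so a gene that differs between the genotypes has a high r by construction. Outside the members, the 10 tested genes with the highest r, between 0.986 and 0.995, were *Gpr35*, *Capg*, *Dock2*, *Mcm5*, *Ccl6*, *C1qb*, *Emp3*, *Gas7*, *Dbn1* and *Ampd2*. Of these, *Ccl6*, a chemokine, was at 4.53 ± 0.186 CPM in HET and 1.35 ± 0.184 CPM in WT, and *Capg*, an actin-capping protein of macrophages, at 14.3 ± 1.83 and 8.62 ± 0.531 CPM.

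The promoters of 7 members, from 250 bases before to 50 bases after the transcription start, were searched in RefSeq sequences of GRCm38.p6 on both strands for GAGGAA, the core letters bound by PU.1 and related ETS factors, and for TTNNGNAA, a pattern of C/EBP sites. *Ncf4* was not in the promoter table. GAGGAA was in 1 of the 7, in *Cybb* on the minus strand at positions 9 to 14 after the start, and in 28.3% of 32851 promoters of all genes. TTNNGNAA was in 3 of the 7, in *Lyz1* at -209 to -202, in *Lyz2* at -55 to -48 and in *Mpeg1* at 15 to 22, and in 40.7% of all promoters. The matches of the lysozymes were thus at different distances from the start, although their 250 upstream bases were 79.4% identical. A match of letters is a description and not a site.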

How the data were processed

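Libraries of polyA RNA were sequenced as single reads of 50 bases. The authors aligned them with STAR 2.7.3a to GRCm38.p6 and counted reads per gene with featureCounts 2.0.3 in the reverse-stranded setting, and these raw counts were deposited. The deposited normalized signal is each count divided by 1 size factor per library (0.773 to 1.42); it served to find the members. Gene lengths for RPKM are those the authors' counting gave. The deposited DESeq2 comparison of the authors was not used.

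The members and lists were chosen with earlier results of these data known. By rule, the genes named were the members, the genes past the threshold and those at both ends of each list. The 10 genes most correlated with the members, *Mustn1*, *Xist* and 4 Y-linked genes were also named by rule. Other genes were named after their values were seen. Counts were fitted in R 4.3.3 with edgeR 4.0.16 (filterByExpr, minimum count 10, TMM, robust quasi-likelihood test, genotype as the only term, two-sided, Benjamini-Hochberg over 14696 genes). CPM and RPKM use TMM factors, and values are mean ± SD. The biological coefficient of variation was 0.143. Depth limits genes with few reads, such as *Ncf4* and *Lyz1*. Nothing in the sources used here ties single mice to litters. Uniqueness was counted by exact matches to GENCODE M21 transcripts, not to the genome. Alternatives were other scaling factors, no or a stricter filter, DESeq2 1.42.0, limma 3.58.1 (voom), edgeR without robust estimation, a block for the replicate number, and each mouse left out. The edgeR step was tested on simulated data.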

Additional observations from a re-analysis of the deposited data

How the results depend on the processing

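Of 105 log2 fold changes of members under the alternatives, 104 moved by less than the spread between mice, 0 changed direction and 1 moved further, that of *Lgals3* without WT mouse 3 (1.37). The alternatives reuse the same libraries, and leaving out 1 mouse seldom moves a mean by that spread. The members were also chosen on this contrast, so the tally was largely fixed in advance and nothing is read from it. Other scaling factors kept the count of genes higher in HET between 19 and 27. It was 386 (18 lower) without a filter, 200 (10 lower) with DESeq2, 3 (0 lower) with limma-voom, 6 (0 lower) without robust estimation, and 0 to 77 (0 to 6 lower) with 1 mouse left out. Members past the threshold were 6 without a filter, 5 with DESeq2, 1 with limma-voom and 0 to 3 with 1 mouse left out. Macrophage markers were 10, 8, 1 and, without robust estimation, 2, and 0 to 7 with 1 mouse left out. Other NADPH oxidase genes were 2 without a filter and 1 with DESeq2, genes of reactive oxygen likewise 2 and 1, and galectins 1 and myeloid transcription factors 2 without a filter. With 1 mouse left out, galectins were 0 to 1. Leaving out a mouse leaves 5 samples; the other causes were not tested. With the replicate number as a block, 114 genes were higher and 2 lower, and 3 members and 7 macrophage markers passed. Mice with the same number deviated from their genotype means with correlations of 0.20, -0.01 and -0.03. For mice with different numbers the correlations ran from -0.14 to 0.13. With 3 mice per genotype these values cannot settle whether the numbers mark pairs, and the main fit took no pairs. The uniqueness of *Lyz1* and *Lyz2* reads was the same over all transcripts, since each gene has 1. With library size alone the median log2 fold change of all genes was 0.06 in place of -0.02. Depth limits *Ncf4*, at 2 to 45 reads, and *Lyz1* in WT, at 12 to 29 reads.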

Other observations

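Some further phagocyte genes had most of their reads in 1 library; they were singled out after their values were seen. *Chil3*, which encodes the chitinase-like protein Ym1, had 2, 1 and 57 reads in HET mice 1, 2 and 3 and 4, 0 and 12 in the WT mice. *Acod1*, the enzyme that makes itaconate in activated macrophages, had 0, 0 and 33 reads in the HET mice and 0, 0 and 3 in the WT mice. Both had their highest count in HET mouse 3, the mouse with the highest counts of *Ncf4* and *S100a9*. Which cells these reads came from was not tested.

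*Cebpa*, which encodes a transcription factor of myeloid cells and of fat cells, had 105 and 108 reads in WT mice 1 and 2 and 522 in WT mouse 3, and 305, 481 and 490 in the HET mice. WT mouse 3 was also the highest of the WT mice in *Lgals12*, a galectin of fat cells. Among the members it was the highest WT mouse for *Lyz2*, *Ncf4* and *Lgals3* and the lowest for *Cybb* and *Mpeg1*. The part of fat cells in the members' levels was not tested.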
